A study of Mus musculus with 24 samples.

Results

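The collagen genes of LLC1, a cell line derived from the Lewis lung carcinoma of the mouse, were followed through 6 h and 24 h of exposure to chemotherapy, to a MEK inhibitor and to both. The members were the protein-coding genes of the GENCODE M21 annotation of GRCm38 whose symbol is written Col, a number, the letter a and a number, 44 of the 28328 genes with transcripts in the table. Untreated cells received DMSO at 0.1%, chemotherapy was cisplatin with pemetrexed at 2.5 µM each, trametinib was given at 10 nM, and the combination held all 3 drugs. Cisplatin crosslinks DNA, pemetrexed is an antifolate that starves cells of nucleotides, and trametinib blocks MEK, the kinase that activates ERK. Each treatment was measured at each time in 3 libraries of polyadenylated RNA, which makes 8 groups and 24 libraries from 1 cell line. DMSO is stated for the untreated cells, and whether the other cells received it too is not stated.

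Collagens are secreted proteins whose chains wind around each other into a stiff helix before they assemble outside the cell. Fibrillar collagens form the cross-banded fibrils that give connective tissue its tensile strength, type IV collagen forms the sheet-like network of basement membranes, and type VI collagen forms beaded filaments close to the cell surface. In a carcinoma, tumour cells can make basement membrane collagens themselves, while fibroblasts are the best known source of fibrillar collagen.

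Levels are transcript TPM summed per gene, which are per length and are shares of all transcripts of a library. The sequencing depth behind a value is unknown, because TPM keeps none. A member was tested when it reached 1 TPM in at least 3 libraries, which 21 members did. Among these 21, 12 reached 1 TPM in all 24 libraries and 9 did not. Of the 9, Col1a1, Col1a2, Col4a5, Col6a3 and Col12a1 reached 1 TPM only in libraries with trametinib, alone or in the combination. Col9a3 passed through chemotherapy and Col24a1 through the combination, both at 24 h. Calls of these genes as higher in those groups are in part set by the filter. Shares of all genes are over all genes tested, so that counts over the 12 have no matched share beside them. Differences are log2 differences in TPM + 1, a scale that understates the change of low genes, and are given ± the standard error of limma's fit over all 24 libraries. A gene was called when its limma p, after Benjamini-Hochberg adjustment across all 12581 tested genes, was under 0.05, and the words rose, fell, higher and lower are kept for called genes. Levels are given per library or as mean ± SD (n = 3), and log2 values of libraries of the same group had correlations of 0.982 to 0.994 across genes. The sources do not say whether the triplicates are separate cultures, so that p-values rest on a spread between libraries that may be technical. The treatments at one time are all set against the same untreated libraries, so that their differences are not independent of each other.

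LLC1 cells carried Vim, the intermediate filament protein of mesenchymal cells, at 3296 to 4478 TPM and the keratins Krt8 and Krt18 at 69.9 to 209 and 121 to 361 TPM. The keratin Krt19 ranged over 0.393 to 7.65 TPM and reached 1 TPM in 19 libraries. The other epithelial markers, Epcam, Cdh1 and Cldn4, stayed at or under 0.154 TPM in every library. Of the mesenchymal markers beside Vim, Fn1 stood at 161 to 684 TPM, Zeb1 at 14.5 to 31.9 TPM and Cdh2 at up to 18.4 TPM. Of the lung epithelial markers Sftpc, Sftpb, Scgb1a1 and Nkx2-1, none passed 0.277 TPM, and of the endothelial markers Cdh5, Kdr and Tek, none passed 0.181 TPM, while Pecam1 stood at 2.06 to 12.7 TPM. In RNA from whole cultures, fewer cells of a type and less RNA per cell cannot be told apart.

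In untreated cells, the collagen message was mostly basement membrane collagen at 6 h, and at 24 h this part was only slightly larger than the fibrillar part. After 24 h of trametinib the message was mostly fibrillar collagen. The 44 genes together summed to 904 ± 36.9 TPM in untreated cells at 6 h and to 1074 ± 55.2 TPM at 24 h. They summed to 1966 ± 19.7 TPM after 24 h of trametinib, 1684 ± 180.3 TPM after 24 h of the combination and 859.9 ± 59.6 TPM after 24 h of chemotherapy. The 6 type IV genes made up 54.2% ± 0.602 of that sum in untreated cells at 6 h, 38.7% ± 0.461 at 24 h and 21.8% ± 0.246 after 24 h of trametinib. Their own summed level was 416 ± 26.2 TPM in untreated cells at 24 h and 428 ± 9.12 TPM with trametinib. The 11 fibrillar genes held 35.9% ± 0.424 of the sum in untreated cells and 60.4% ± 0.462 with trametinib at 24 h, and Col3a1 alone held 55.4% ± 0.454 there. These shares are a description with no test. The beaded filament genes held 2.19% ± 0.101 in untreated cells at 24 h and 9.27% ± 0.212 with the combination. Multiplexins, which are basement membrane collagens whose ends are cut off as signalling fragments, held 13.7% ± 0.319 in untreated cells and 2.33% ± 0.239 with trametinib at 24 h.

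**Figure D1:**
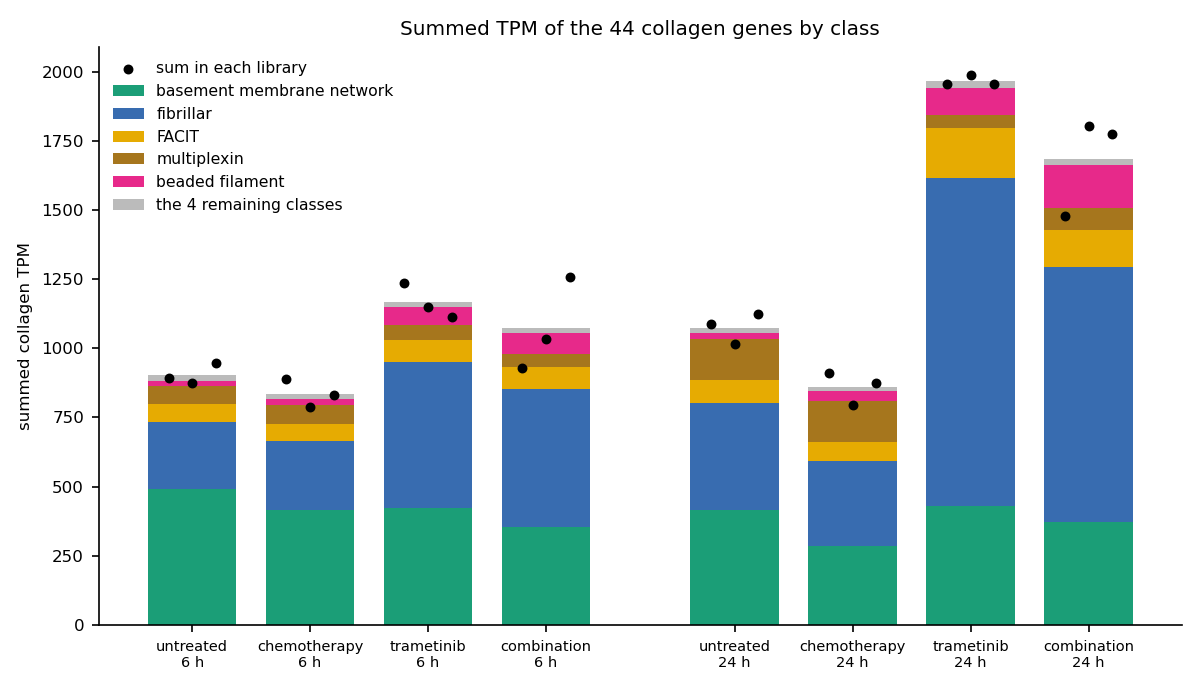
Summed TPM of the 44 collagen genes in each group, with bars giving the group means stacked by class and points giving the sum in each of the 3 libraries. The blue fibrillar part is largest after 24 h of trametinib, while the green basement membrane part is 428 TPM there and 416 TPM in untreated cells at 24 h.

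By mean level over the 24 libraries, Col3a1 stood first among the collagens at 478 TPM and 250th of all 28328 genes. Col4a1 followed at 247 TPM, Col4a2 at 149.8, Col16a1 at 91.6, Col18a1 at 81.5, Col5a1 at 52.1 and Col6a1 at 45.1 TPM. Of the 44 members, 23 did not pass the filter, none of them reached 1 TPM in any library, and Col13a1 and Col6a6 were listed at 0 in every library. The cartilage collagens were among the low ones, Col2a1 with at most 0.648 TPM and Col11a1 with at most 0.107 TPM. The membrane-spanning collagens Col13a1, Col17a1, Col23a1 and Col25a1 were too, Col17a1 of the hemidesmosome being the highest at up to 0.238 TPM. The remaining low members were Col27a1, Col4a3, Col4a4, Col4a6, Col6a4, Col6a5, Col8a2, Col9a1, Col9a2, Col10a1, Col14a1, Col15a1, Col19a1, Col20a1, Col22a1 and Col28a1, which reached at most 0.594 TPM, in Col22a1.

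Trametinib alone raised most of the collagen genes it could be tested on, fibrillar, beaded filament and anchoring fibril genes alike. At 6 h, 12 of 21 members were higher than in untreated cells and 2 were lower, against 35.9% of all genes tested called higher and 18.9% called lower. At 24 h, 14 were higher and 2 lower, against 32.4% and 26.3% of all genes. Col1a1, Col1a2, Col4a5, Col6a3 and Col12a1 count among the 21 only through libraries with trametinib. Among the 12 members present in all libraries, 7 were higher and 2 lower at 6 h, and 8 higher and 1 lower at 24 h. The median log2 difference of the 21 members was 0.47 at 6 h and 0.73 at 24 h, where the median of all genes tested was 0.10 and 0.036. With the libraries rescaled by the median ratio, the 6 h median of all genes was 0.016 and the members' split became 11 higher and 4 lower.

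Markers of other cell types differed between the groups as well. At 24 h the 6 epithelial markers, mostly Krt8 and Krt18, summed to 323 to 337 TPM untreated, 451 to 489 with chemotherapy, 220.4 to 257 with trametinib and 374 to 395 with the combination. The 4 mesenchymal markers, mostly Vim, summed to 4259 to 4368 TPM untreated, 3589 to 3916 with chemotherapy, 4749 to 5211 with trametinib and 4513 to 4926 with the combination. Endothelial markers, of which Pecam1 alone reached 1 TPM in any library, summed to 2.62 to 3.61 TPM untreated, 7.10 to 12.9 with chemotherapy and 3.46 to 4.46 with trametinib. Trametinib libraries thus lay below untreated ones in the epithelial sum and above them in the mesenchymal sum, and chemotherapy libraries the reverse. The summed TPM of 6 fibroblast markers was 2.49 to 2.84 in untreated cells and 7.19 to 9.79 with trametinib at 6 h. At 24 h it was 5.37 to 6.26 untreated, 7.92 to 8.68 with chemotherapy, 22.8 to 23.4 with trametinib and 37.7 to 40.9 with the combination. The fibroblast surface markers Thy1 and Fap stayed at 0 to 0.0347 and 0.0102 to 0.112 TPM in all 24 libraries. The surface receptor Pdgfrb ranged over 0.0785 to 2.00 TPM and the proteoglycan Lum over 0 to 2.03 TPM. They reached 1 TPM in 6 and 4 libraries. The proteoglycan Dcn reached the highest level of the 6 and ranged widely, over 0.447 to 28.7 TPM, and the receptor Pdgfra over 1.82 to 9.00 TPM. The part of these genes in the collagen results was not tested.

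Chemotherapy changed few collagen genes at 6 h, and at 24 h it raised some and lowered others. At 6 h, 1 member was higher and 1 was lower, against 11.3% and 13.5% of all genes. At 24 h, 5 were higher and 6 lower, against 34.9% and 24.3% of all genes, and the median over the 21 members was 0.015 beside 0.057 over all genes. Among the 12 members present in all libraries, 2 were higher and 6 lower, with a median of -0.38, and of the 5 higher members Col1a2, Col5a3 and Col9a3 lay outside these 12. The 5 were Col1a2, Col5a3, Col6a1, Col6a2 and Col9a3, and the 6 were Col3a1, Col4a1, Col4a2, Col5a2, Col8a1 and Col16a1. A list of 5 macrophage and leukocyte markers summed to 33.0 to 39.3 TPM after 24 h of chemotherapy and 10.3 to 14.7 TPM untreated. That sum was Cd68, a lysosomal protein, for the most part, while Adgre1 and Cd3e were listed at 0 and Ptprc and Csf1r stayed at or under 0.0539 TPM in every library, and its part in the collagen results was not tested.

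With the combination, 11 members were higher and 4 lower at 6 h, against 38.6% and 19.8% of all genes, and 14 were higher and 1 lower at 24 h, against 39.6% and 23.8%. Among the 12 members present in all libraries, 6 were higher and 4 lower at 6 h, and 7 higher and 1 lower at 24 h. Compared with chemotherapy alone, 12 were higher and 3 lower at 6 h (39.7% and 16.4% of all genes), and 16 were higher and 3 lower at 24 h (30.3% and 23.2%). The 12 members present in all libraries gave 6 higher and 2 lower at 6 h, and 10 higher and 1 lower at 24 h. With rescaled libraries the split against chemotherapy at 6 h was 12 higher and 6 lower. Compared with trametinib alone, 1 member, Col1a2, was higher at 6 h and none lower (12.3% and 6.53% of all genes), and with rescaled libraries 1 was higher and 3 were lower. At 24 h, 6 were higher than with trametinib alone and 4 lower (31.4% and 18.0%), and among the 12 members present in all libraries 3 were higher and 4 lower. With the combination the median of all genes tested was 0.11 at 6 h and 0.10 at 24 h, and rescaling moved these to -0.004 and -0.009.

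**Figure D2:**
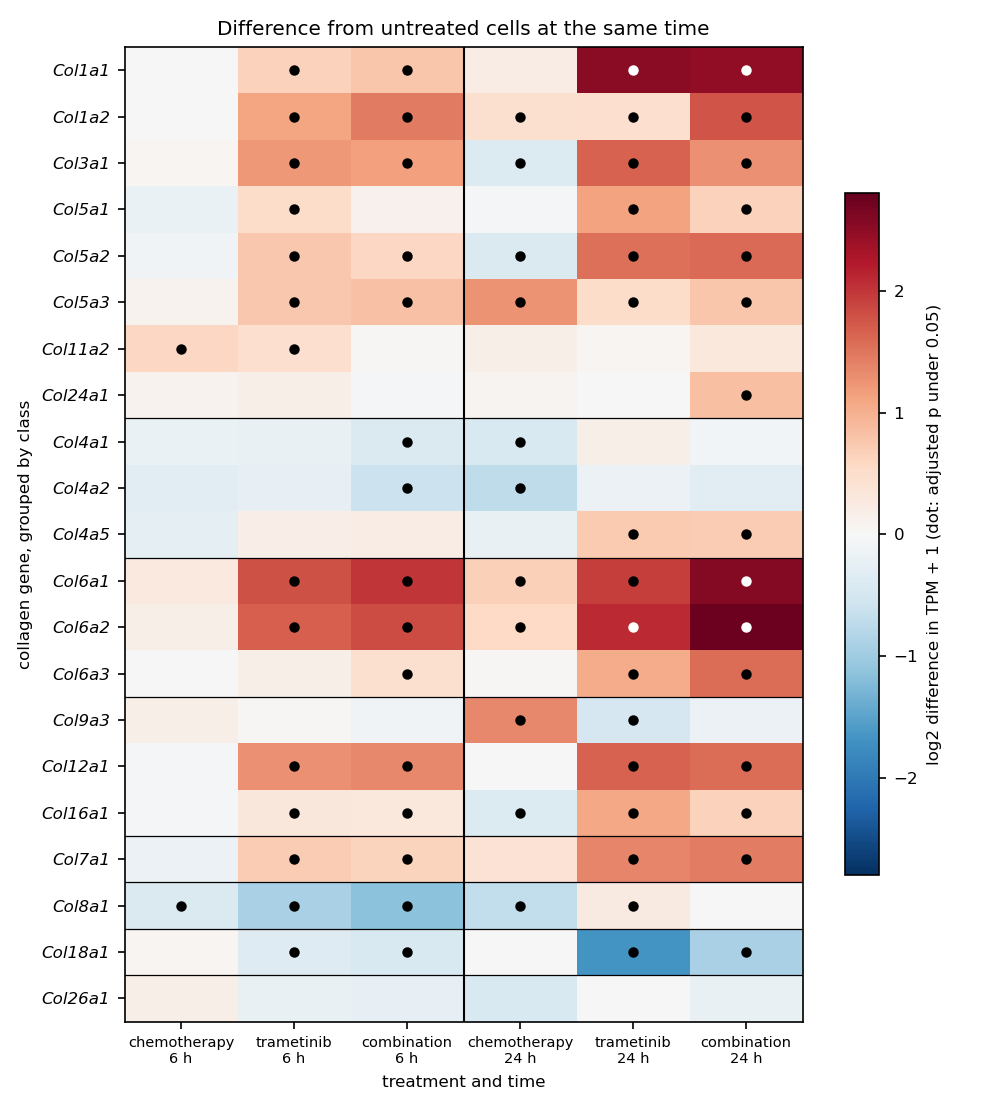
Log2 difference in TPM + 1 from untreated cells at the same time for the 21 collagen genes tested, as colour, with lines between classes and a dot where the limma adjusted p was under 0.05. The trametinib and combination columns are mostly red, Col18a1 is blue in both at each time, and chemotherapy at 24 h shows both colours.

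Of the 3 basement membrane network genes tested, the abundant pair Col4a1 and Col4a2 fell with chemotherapy at 24 h and was not called with trametinib alone at either time. Col4a1 (chromosome 8, 11198423 to 11312826, minus strand) and Col4a2 (chromosome 8, 11312805 to 11449287, plus strand) encode the chains of the common type IV collagen, and lie head to head with an overlap of 22 bases. Their promoter windows from RefSeq on GRCm38.p6, 250 bases before to 50 bases after the start, are printed because a single stretch of DNA holds both starts and the windows share 78 bases. Capitals mark CCAAT and GGGCGG on either strand, found in 37.4% and 35.7% of the 32851 RefSeq windows of this length, and a match is a match of letters and not a measured site.
Col4a1, chr8:11312777-11313076, minus strand: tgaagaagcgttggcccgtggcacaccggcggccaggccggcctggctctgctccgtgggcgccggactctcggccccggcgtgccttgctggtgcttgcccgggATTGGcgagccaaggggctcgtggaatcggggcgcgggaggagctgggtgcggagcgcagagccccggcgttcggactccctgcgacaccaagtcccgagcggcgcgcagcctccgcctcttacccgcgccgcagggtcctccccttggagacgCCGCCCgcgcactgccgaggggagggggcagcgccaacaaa
Col4a2, chr8:11312555-11312854, plus strand: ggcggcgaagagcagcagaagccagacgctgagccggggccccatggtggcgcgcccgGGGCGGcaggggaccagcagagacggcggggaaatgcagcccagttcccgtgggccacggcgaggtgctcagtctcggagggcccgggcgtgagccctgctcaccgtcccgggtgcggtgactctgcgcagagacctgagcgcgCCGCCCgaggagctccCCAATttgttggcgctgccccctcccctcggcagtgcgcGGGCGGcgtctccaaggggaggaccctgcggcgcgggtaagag

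Col4a1 stood at 246, 232 and 265 TPM in untreated libraries at 24 h, 199.5, 171 and 181 with chemotherapy, 276, 283 and 275 with trametinib and 197, 245 and 267 with the combination. Every chemotherapy library was below every untreated one, the trametinib libraries lay above the untreated ones by less than the test could call, and the combination libraries overlapped the untreated range (log2 difference -0.43 ± 0.11, adjusted p = 0.0016 for chemotherapy, limma). Col4a2 stood at 175, 154 and 172 TPM untreated, 112, 93.5 and 100.1 with chemotherapy, 146, 154 and 145 with trametinib and 104, 141 and 160.1 with the combination. Again the chemotherapy libraries lay below the untreated ones without overlap (log2 difference -0.71 ± 0.14, adjusted p = 2.6e-04, limma). With trametinib alone at 24 h the log2 differences were 0.17 ± 0.11 for Col4a1 and -0.17 ± 0.14 for Col4a2, with limma adjusted p = 0.18 and 0.33. Set against chemotherapy, the combination was higher in Col4a1 (log2 difference 0.35 ± 0.11, adjusted p = 0.0082) and Col4a2 (log2 difference 0.38 ± 0.14, adjusted p = 0.029), although its libraries overlapped those with chemotherapy for both. Without replicate 3 of the combination the Col4a1 call was lost (limma adjusted p = 0.059), and the Col4a2 call was lost without replicate 2 or 3 of either group (up to 0.17) and with protein-coding transcripts alone (0.13).

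At 6 h Col4a1 stood at 290.4, 285 and 311 TPM in untreated libraries, all above the 199, 218 and 251 TPM with the combination (log2 difference -0.41 ± 0.11, adjusted p = 0.0022, limma). Col4a2 at 6 h gave 188, 186 and 208 TPM untreated and 102, 129.5 and 159 with the combination, also without overlap (log2 difference -0.59 ± 0.14, adjusted p = 0.0014, limma). Under trametinib alone at 6 h neither was called, at -0.20 ± 0.11 and -0.24 ± 0.14, whereas with rescaled libraries both were lower (limma adjusted p = 0.011 and 0.037). The ratio of Col4a1 to Col4a2 TPM lay at 1.5 to 1.54 in untreated cells at 6 h and 1.41 to 1.54 at 24 h. It was 1.78 to 1.83 with chemotherapy, 1.83 to 1.90 with trametinib and 1.67 to 1.89 with the combination at 24 h, above the untreated libraries in each group. Part of the Col4a2 level lay in retained-intron transcripts, and its protein-coding transcripts alone stood at 111 ± 11.5 TPM untreated, 80.5 ± 10.2 TPM with chemotherapy and 115 ± 2.70 TPM with trametinib at 24 h. Over protein-coding transcripts the ratio at 24 h was 2.12 to 2.31 untreated, 2.21 to 2.44 with chemotherapy, 2.40 to 2.46 with trametinib and 2.38 to 2.49 with the combination. The trametinib and combination libraries thus stayed above the untreated ones, and the chemotherapy libraries overlapped them.

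Col4a5 (chromosome X, 141475385 to 141689234, plus strand), a chain of the type IV network of kidney and eye, was low but rose with trametinib at 24 h. At 6 h it stood at 0.283 to 0.337 TPM untreated and 0.0818 to 0.127 with chemotherapy. With trametinib it stood at 0.397 to 0.583 TPM and with the combination at 0.425 to 0.718 TPM, all above the other libraries. Neither was called against untreated cells at 6 h. Against chemotherapy at 6 h, Col4a5 was called higher with the combination. Its libraries stood at 0.416, 0.670 and 0.536 TPM untreated, 0.166, 0.620 and 0.258 with chemotherapy, 1.38, 1.67 and 1.62 with trametinib and 1.35, 1.49 and 1.74 with the combination at 24 h. All 6 libraries with trametinib lay above the other 6 of that time (log2 difference 0.73 ± 0.11, adjusted p = 1.1e-05 for trametinib and log2 difference 0.71 ± 0.11, adjusted p = 1.2e-05 for the combination, limma). Its head-to-head neighbour Col4a6, 1308 bases away, and the pair Col4a3 and Col4a4, 71 bases apart, stayed under the filter in every library.

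Among the fibrillar collagens, Col3a1 gave the largest level and one of the clearest changes. Col3a1 (chromosome 1, 45311538 to 45349706, plus strand) encodes the chain of type III collagen, the fibrillar collagen of soft and elastic tissues and healing wounds, and its RefSeq window is printed as that of the most abundant member. Capitals mark TATAAA on either strand, which 13.6% of all windows hold.
Col3a1, chr1:45311288-45311587, plus strand: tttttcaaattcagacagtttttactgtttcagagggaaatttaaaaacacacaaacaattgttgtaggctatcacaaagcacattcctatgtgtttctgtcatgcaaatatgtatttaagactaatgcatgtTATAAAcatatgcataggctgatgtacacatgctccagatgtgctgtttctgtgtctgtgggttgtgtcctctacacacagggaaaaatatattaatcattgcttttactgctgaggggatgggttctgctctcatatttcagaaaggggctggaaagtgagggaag

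At 6 h Col3a1 stood at 192, 193 and 199 TPM in untreated libraries, 193, 204 and 209.9 with chemotherapy, 476, 415 and 459 with trametinib and 382, 410.4 and 521 with the combination. At 24 h the values were 352, 329 and 353 TPM untreated, 278, 250.2 and 266 with chemotherapy, 1094, 1101 and 1076 with trametinib and 753, 919.7 and 853 with the combination. Every library with trametinib, alone or in the combination, lay above every library without it at the same time. Trametinib alone raised Col3a1 over untreated cells by 2.30-fold in TPM + 1 at 6 h (log2 difference 1.20 ± 0.088, adjusted p = 1.1e-09, limma) and 3.16-fold at 24 h (log2 difference 1.66 ± 0.088, adjusted p = 5.8e-12). Chemotherapy lowered Col3a1 at 24 h, with its libraries all below the untreated ones (log2 difference -0.38 ± 0.088, adjusted p = 0.0010, limma). The combination was also lower than trametinib alone (log2 difference -0.38 ± 0.088, adjusted p = 0.0014, limma), and it differed from the sum of both effects by 0.0018 ± 0.12 (limma adjusted p = 0.99). Untreated cells also held more Col3a1 at 24 h than at 6 h (log2 difference 0.82 ± 0.088, adjusted p = 1.5e-07). The protein-coding transcript Col3a1-201 held 99.9% of the level with trametinib at 24 h. The predicted gene Gm47302 overlaps exons of Col3a1 on the same strand, and 1.12% of the 31-base words of Col3a1 transcripts occur in other genes.

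Type V collagen nucleates fibrils and sets their width, and its chain genes behaved differently from each other. Col5a1 (chromosome 2, 27886425 to 28039514, plus strand) stood at 33.3, 35.1 and 40.4 TPM untreated, 38.0, 30.8 and 37.0 with chemotherapy, 79.5, 78.8 and 82.0 with trametinib and 48.7, 59.8 and 63.2 with the combination at 24 h. The trametinib libraries were highest and narrow in spread, and the combination libraries lay between them and the untreated ones without overlap (log2 difference 1.13 ± 0.14, adjusted p = 1.4e-06 for trametinib and log2 difference 0.64 ± 0.14, adjusted p = 6.6e-04 for the combination, limma). The combination was lower than trametinib alone (log2 difference -0.49 ± 0.14, adjusted p = 0.0084), a call lost without replicate 1 of the combination (limma adjusted p = 0.054). At 6 h trametinib raised it (log2 difference 0.51 ± 0.14, adjusted p = 0.0051, limma) and the combination did not pass (log2 difference 0.11 ± 0.14, adjusted p = 0.53). The genes 2810430I11Rik and Gm13372 overlap Col5a1 exons on the opposite strand, and whether the quantification of these stranded libraries used strand is not stated, so that its level is uncertain to that extent.

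Col5a2 (chromosome 1, 45374321 to 45503282, minus strand) lies tail to tail with Col3a1, 24614 bases away. It stood at 2.45, 2.07 and 2.23 TPM untreated, 1.47, 1.43 and 1.47 with chemotherapy, 8.96, 8.49 and 8.15 with trametinib and 8.63, 9.98 and 7.90 with the combination at 24 h. The 4 groups fell into 3 levels, with the chemotherapy libraries below the untreated ones and both trametinib groups overlapping each other above them. The log2 difference was 1.55 ± 0.076 with trametinib, 1.59 ± 0.076 with the combination and -0.40 ± 0.076 with chemotherapy (limma adjusted p = 1.9e-12, 9.7e-13 and 1.5e-04). As in Col3a1, chemotherapy alone lowered Col5a2, but the combination exceeded the sum of both effects (log2 difference 0.44 ± 0.11, adjusted p = 0.0038, limma). The ratio of Col3a1 to Col5a2 TPM was 122 to 132 with trametinib and 87.4 to 108 with the combination at 24 h.

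Col5a3 (chromosome 9, 20770050 to 20815067, minus strand) responded to both kinds of drug, and the effects did not add. At 24 h its libraries stood at 0.763, 0.860 and 1.13 TPM untreated, 3.90, 2.89 and 3.90 with chemotherapy, 1.61, 1.84 and 1.74 with trametinib and 1.82, 2.39 and 2.60 with the combination. Chemotherapy gave the 3 highest values, and the combination lay below them and above the untreated libraries. The log2 difference from untreated cells was 1.25 ± 0.13 with chemotherapy, 0.51 ± 0.13 with trametinib and 0.77 ± 0.13 with the combination (limma adjusted p = 1.2e-07, 0.0024 and 4.2e-05). The combination differed from the sum by -0.99 ± 0.19 (limma adjusted p = 4.3e-04). At 6 h trametinib had raised it with a log2 difference of 0.75 ± 0.13, while chemotherapy gave 0.097 ± 0.13 (limma adjusted p = 7.5e-05 and 0.65).

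Type I collagen, the main collagen of bone, tendon and skin, was near the limit of measurement in untreated cells and rose under trametinib. Col1a1 (chromosome 11, 94936224 to 94953042, plus strand) stood at 0.0507, 0.198 and 0.228 TPM untreated, 0.396, 0.0789 and 0.580 with chemotherapy, 5.94, 5.78 and 5.38 with trametinib and 3.95, 6.89 and 5.92 with the combination at 24 h. The 6 libraries with trametinib were far above the other 6 (log2 difference 2.53 ± 0.19, adjusted p = 1.1e-09 for trametinib and log2 difference 2.48 ± 0.19, adjusted p = 1.1e-09 for the combination, limma). At 6 h the rise was smaller, with 0.688, 0.690 and 1.01 TPM under trametinib and 0.0282, 0.0147 and 0.431 untreated (log2 difference 0.65 ± 0.19, adjusted p = 0.0077, limma). Most of the Col1a1 level at 24 h lay in Col1a1-202, a short transcript annotated as processed and not coding, with 4.30 ± 0.367 TPM under trametinib and 3.27 ± 0.925 under the combination. The protein-coding transcript Col1a1-201 stood at 0.0746 ± 0.0210 TPM untreated, 1.40 ± 0.121 with trametinib and 2.32 ± 0.596 with the combination. Over protein-coding transcripts, a setting added after the data were seen, the combination was above trametinib alone by 0.45 (limma adjusted p = 5.5e-04), where the whole gene gave -0.050 ± 0.19.

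Col1a2 (chromosome 6, 4504814 to 4541544, plus strand), the partner chain of Col1a1, followed another course. At 6 h it stood at 0.185, 0.103 and 0.168 TPM untreated, 0.155, 0.130 and 0.127 with chemotherapy, 1.32, 1.40 and 1.77 with trametinib and 2.30, 1.83 and 2.33 with the combination. At 24 h the values were 0.192, 0.306 and 0.192 TPM untreated, 0.644, 0.643 and 0.751 with chemotherapy, 0.791, 0.630 and 0.710 with trametinib and 2.95, 3.57 and 3.05 with the combination. At 24 h the chemotherapy and trametinib libraries overlapped each other above the untreated ones, and the combination libraries stood alone at the top. The combination exceeded the sum of both effects at 24 h (log2 difference 0.84 ± 0.12, adjusted p = 2.8e-05, limma) and was above trametinib alone at both times (log2 difference 0.33 ± 0.085, adjusted p = 0.0086 at 6 h and log2 difference 1.29 ± 0.085, adjusted p = 3.9e-10 at 24 h). Its level lay mostly in the retained-intron transcript Col1a2-206, which held 67.2% of it under trametinib at 6 h and 81.6% under chemotherapy at 24 h. Over protein-coding transcripts the rise under chemotherapy at 24 h was not called (limma adjusted p = 0.38), nor was the combination above trametinib at 6 h (0.18). The ratio of Col1a1 to Col1a2 TPM was 0.491 to 0.569 with trametinib at 6 h and 7.51 to 9.17 at 24 h, and over protein-coding transcripts 0.761 to 1.12 and 2.82 to 5.91.

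**Figure D3:**
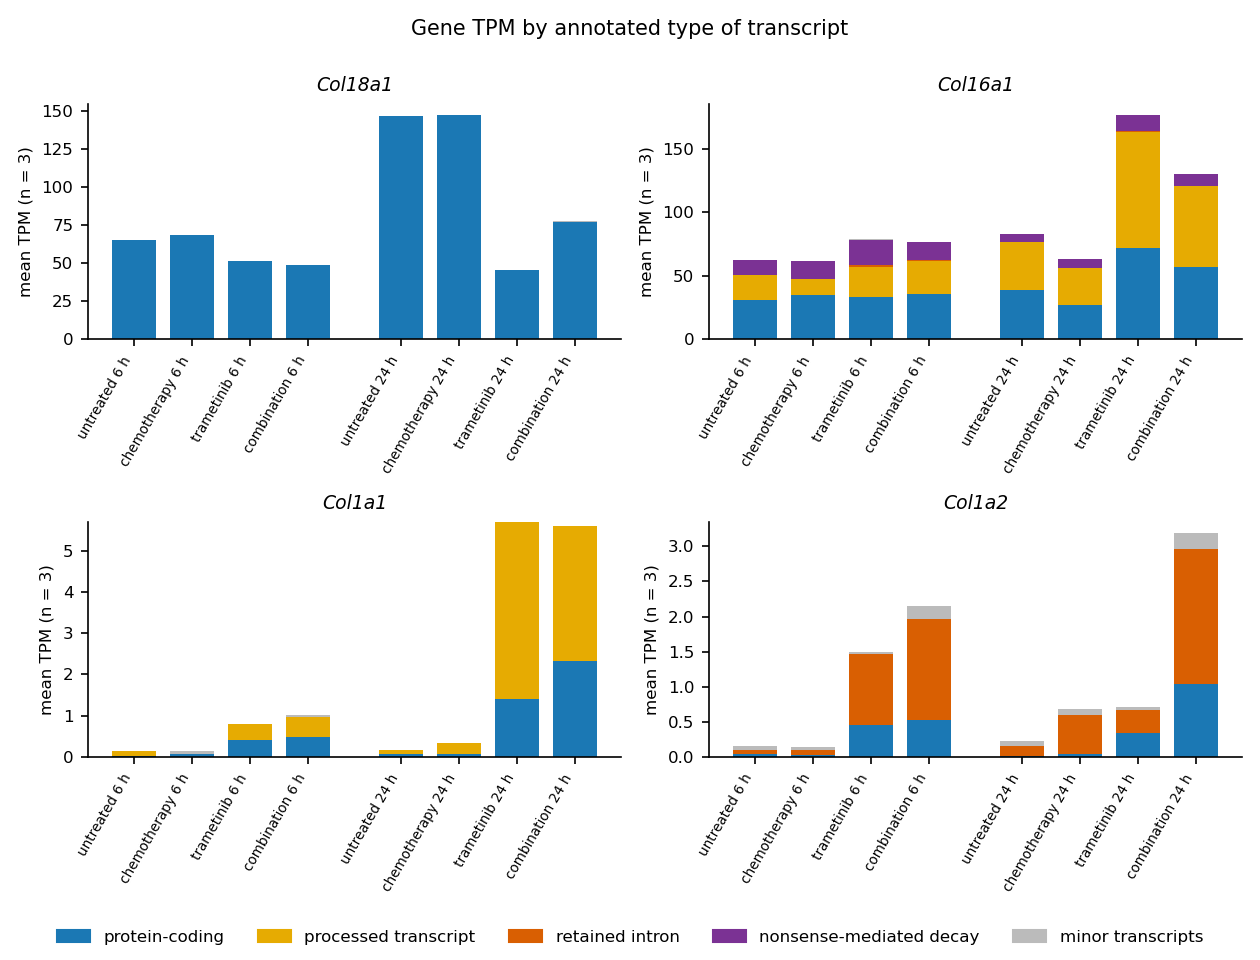
Mean TPM (n = 3) of 4 collagen genes in each group, stacked by the annotated type of their transcripts, with minor transcripts in grey. Col18a1 is protein-coding throughout, while Col16a1, Col1a1 and Col1a2 have large parts in transcripts annotated as processed, retained-intron or nonsense-mediated decay.

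The last 2 fibrillar members tested were low. Col24a1 (chromosome 3, 145292472 to 145552011, plus strand), a fibrillar collagen of bone and eye, stood at 0.829, 0.812 and 0.998 TPM untreated, 0.858, 0.987 and 1.12 with chemotherapy, 0.997, 0.739 and 0.830 with trametinib and 2.07, 2.24 and 2.82 with the combination at 24 h. Only the combination libraries stood apart from the other groups of that time (log2 difference 0.84 ± 0.13, adjusted p = 2.0e-05, limma), and they exceeded the sum of both effects (log2 difference 0.78 ± 0.19, adjusted p = 0.0039). Col11a2 (chromosome 17, 34039437 to 34066685, plus strand), a cartilage fibril chain, was higher at 6 h with chemotherapy (1.86, 1.00 and 1.84 TPM against 0.713, 0.553 and 0.790 untreated) and with trametinib (1.16, 1.54 and 1.31 TPM). These calls were weak (log2 difference 0.59 ± 0.19, adjusted p = 0.031 and log2 difference 0.47 ± 0.19, adjusted p = 0.046, limma): the first was lost without any 1 of the untreated libraries or of chemotherapy replicates 1 and 3 (up to 0.11), the second in 14 of 24 leave-one-out fits (up to 0.13). The combination at 6 h was lower than chemotherapy in Col11a2 (log2 difference -0.56 ± 0.19, adjusted p = 0.019), a call lost without chemotherapy replicate 1 or 3 or combination replicate 2 (limma adjusted p up to 0.081). Over protein-coding transcripts the trametinib difference in Col11a2 was -0.032 (limma adjusted p = 0.83).

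Beaded filament genes rose with trametinib, and at 24 h all 3 tested were higher still when chemotherapy was added. Col6a1 (chromosome 10, 76708792 to 76726168, minus strand) and Col6a2 (chromosome 10, 76595762 to 76623630, minus strand) encode chains that join that of Col6a3 in type VI collagen, and lie in a row on the same strand, 85161 bases apart. Their RefSeq windows are printed because both genes rose with trametinib at both times. Capitals mark TGANTCA, where N is any base, or GGGCGG on either strand, and 7.80% of all windows hold the first. The Col6a1 window is set by a start at 76726044, whereas the transcript Col6a1-201 starts upstream of that, at 76726168. The marked TGANTCA lies downstream of the Col6a1-201 start. Col6a2 has another window, set by a downstream start at 76623404, which holds 3 GGGCGG matches and is not printed.
Col6a1, chr10:76725995-76726294, minus strand: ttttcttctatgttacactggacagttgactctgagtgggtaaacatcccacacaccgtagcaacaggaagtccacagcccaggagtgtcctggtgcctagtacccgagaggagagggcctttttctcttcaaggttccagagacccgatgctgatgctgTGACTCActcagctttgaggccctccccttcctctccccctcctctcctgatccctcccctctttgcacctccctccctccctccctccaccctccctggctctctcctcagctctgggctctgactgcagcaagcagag
Col6a2, chr10:76623581-76623880, minus strand: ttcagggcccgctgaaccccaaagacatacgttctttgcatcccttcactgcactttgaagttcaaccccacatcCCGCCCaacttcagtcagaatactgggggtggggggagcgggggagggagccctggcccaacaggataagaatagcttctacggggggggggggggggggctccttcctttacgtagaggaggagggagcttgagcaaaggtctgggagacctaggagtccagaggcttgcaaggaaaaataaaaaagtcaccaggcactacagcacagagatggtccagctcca

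At 6 h Col6a1 stood at 12.6, 12.6 and 12.3 TPM untreated, 14.7, 15.7 and 15.1 with chemotherapy, 49.3, 38.9 and 48.5 with trametinib and 45.2, 49.3 and 65.8 with the combination. At 24 h it stood at 18.4, 17.0 and 19.4 TPM untreated, 29.5, 28.5 and 30.9 with chemotherapy, 73.9, 73.8 and 71.7 with trametinib and 98.2, 124 and 118 with the combination. At 24 h the 4 groups formed separate levels in that order, with no overlap between neighbours. Against untreated cells the log2 difference was 0.67 ± 0.11 with chemotherapy, 1.95 ± 0.11 with trametinib and 2.57 ± 0.11 with the combination (limma adjusted p = 2.9e-05, 1.5e-11 and 1.9e-13). The combination differed from the sum of both effects by -0.052 ± 0.15 (limma adjusted p = 0.84).

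Col6a2 kept the same order at 24 h, with 4.99, 4.31 and 6.29 TPM untreated, 8.65, 7.05 and 8.65 with chemotherapy, 26.1, 25.4 and 24.4 with trametinib and 35.1, 44.0 and 42.7 with the combination. Here too no neighbouring groups overlapped. Its log2 difference was 0.56 ± 0.15, 2.10 ± 0.15 and 2.75 ± 0.15 for these treatments (limma adjusted p = 0.0035, 5.7e-10 and 8.2e-12). The ratio of Col6a1 to Col6a2 TPM was 2.12 to 2.39 in untreated cells at 6 h, 3.09 to 3.94 at 24 h and 2.83 to 2.93 with trametinib at 24 h.

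Col6a3 (chromosome 1, 90765923 to 90843971, minus strand), the longest chain of type VI collagen, was far lower and rose later. Its libraries at 24 h stood at 0.130, 0.0610 and 0.0820 TPM untreated, 0.0883, 0.130 and 0.147 with chemotherapy, 1.09, 1.24 and 1.41 with trametinib and 1.73, 3.19 and 1.99 with the combination. The trametinib groups lay above the others, and the combination above trametinib, without overlap (log2 difference 1.04 ± 0.14, adjusted p = 3.6e-06, log2 difference 1.57 ± 0.14, adjusted p = 1.0e-08 and, for the combination against trametinib, log2 difference 0.53 ± 0.14, adjusted p = 0.0041, limma). At 6 h trametinib alone did not pass (log2 difference 0.15 ± 0.14, adjusted p = 0.38, limma). The combination did at 6 h (log2 difference 0.44 ± 0.14, adjusted p = 0.012), a call lost without its replicate 2 or 3 (limma adjusted p up to 0.079). It was also above chemotherapy at 6 h (log2 difference 0.42 ± 0.14, adjusted p = 0.017), a call lost without chemotherapy replicate 2 or combination replicate 2 or 3 (limma adjusted p up to 0.10).

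**Figure D4:**
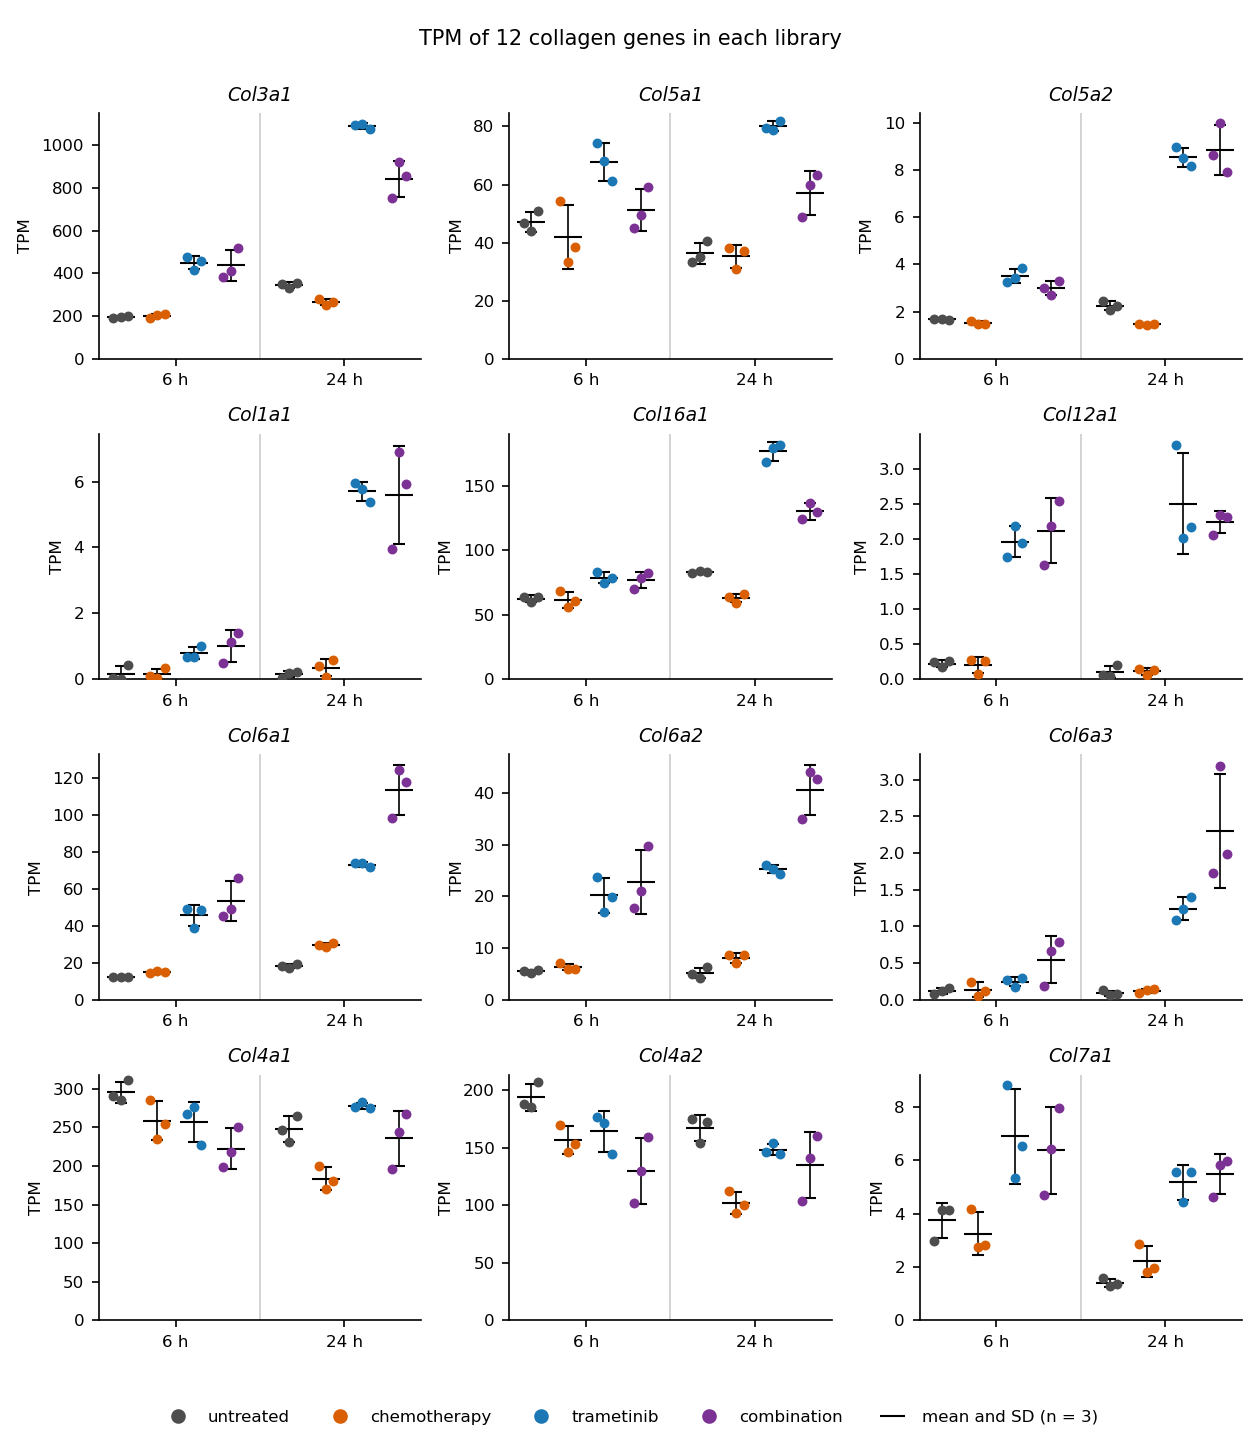
TPM of 12 collagen genes in each of the 24 libraries (points), with the group mean and SD (black). Trametinib and combination libraries lie above the other libraries of their time in Col3a1, Col5a2, Col1a1, Col16a1, Col12a1, Col6a1, Col6a2 and Col7a1 at both times, and Col4a1 and Col4a2 show no such step.

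The FACIT collagens sit on the surface of fibrils and have helices interrupted by short breaks. Col12a1 (chromosome 9, 79598991 to 79718831, minus strand), which tethers fibrils to other matrix proteins, stood at 0.245, 0.169 and 0.261 TPM untreated, 0.277, 0.0740 and 0.260 with chemotherapy, 1.74, 2.18 and 1.94 with trametinib and 1.62, 2.19 and 2.54 with the combination at 6 h. At 24 h it stood at 0.0617, 0.0410 and 0.209 TPM untreated, 0.150, 0.0617 and 0.128 with chemotherapy, 3.33, 2.01 and 2.16 with trametinib and 2.06, 2.35 and 2.30 with the combination. The trametinib and combination libraries overlapped each other and all held at least 1.62 TPM, while no library without trametinib passed 0.277 TPM. The log2 difference with trametinib alone was already 1.27 ± 0.13 at 6 h and was 1.65 ± 0.13 at 24 h (limma adjusted p = 6.4e-08 and 1.1e-09). Chemotherapy gave 0.015 ± 0.13 at 24 h (limma adjusted p = 0.93).

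Col16a1 (chromosome 4, 130047840 to 130099283, plus strand), a FACIT-like collagen that binds integrins, was abundant and rose mainly late. It stood at 82.0, 83.8 and 83.0 TPM untreated, 64.2, 59.2 and 65.8 with chemotherapy, 168, 179 and 182 with trametinib and 124, 137 and 129.7 with the combination at 24 h. The 4 groups did not overlap, with chemotherapy lowest and trametinib highest. The log2 difference was -0.39 ± 0.069 with chemotherapy, 1.08 ± 0.069 with trametinib and 0.64 ± 0.069 with the combination (limma adjusted p = 6.7e-05, 8.5e-11 and 1.0e-07), and the combination differed from the sum by -0.045 ± 0.097. At 6 h trametinib gave 0.33 ± 0.069 (limma adjusted p = 4.6e-04). Protein-coding transcripts held about 45.2% of the Col16a1 level, and over these alone the 6 h difference was not called (limma adjusted p = 0.62).

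Col9a3 (chromosome 2, 180597790 to 180622189, plus strand), a chain of the FACIT collagen of cartilage, rose with chemotherapy and not with trametinib. At 24 h its libraries stood at 0.608, 0.512 and 1.14 TPM untreated, 3.95, 2.21 and 4.41 with chemotherapy, 0.216, 0.402 and 0.133 with trametinib and 0.348, 0.444 and 0.864 with the combination. The chemotherapy libraries were above all others of that time (log2 difference 1.35 ± 0.19, adjusted p = 5.1e-06, limma), and the combination libraries overlapped the untreated ones. The combination differed from the sum of both effects by -1.05 ± 0.27 and from chemotherapy alone by -1.52 ± 0.19 (limma adjusted p = 0.0056 and 1.5e-06). With a pseudocount of 0.1 the first was not called (0.12). The fall under trametinib alone (log2 difference -0.48 ± 0.19, adjusted p = 0.037, limma) was lost without untreated replicate 3 or trametinib replicate 1 or 3 (up to 0.19). Tcfl5 overlaps Col9a3 exons on the opposite strand, and 5.35% of the 31-base words of Col9a3 occur in other genes, so that its level is uncertain. The partner chains Col9a1 and Col9a2 stayed at or under 0.0469 TPM.

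Col7a1 (chromosome 9, 108953586 to 108984875, plus strand), which builds the anchoring fibrils that hold epithelium to the tissue below, rose under trametinib at both times. Its libraries at 24 h stood at 1.58, 1.28 and 1.37 TPM untreated, 2.88, 1.82 and 1.96 with chemotherapy, 5.58, 4.43 and 5.55 with trametinib and 4.62, 5.85 and 5.99 with the combination. The trametinib groups overlapped each other and lay above the others, and chemotherapy lay above untreated without overlap but was not called. The log2 difference was 0.41 ± 0.18 with chemotherapy, 1.36 ± 0.18 with trametinib and 1.42 ± 0.18 with the combination (limma adjusted p = 0.063, 2.8e-06 and 1.2e-06). Over protein-coding transcripts the chemotherapy difference was called, at 0.64 (limma adjusted p = 6.7e-04). Untreated cells held 2.99, 4.14 and 4.13 TPM at 6 h, more than at 24 h (log2 difference -0.97 ± 0.18, adjusted p = 1.3e-04, limma).

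Col8a1 (chromosome 16, 57624258 to 57754737, minus strand), a short-chain network collagen of vessel walls and the cornea, fell with every treatment at 6 h. At 6 h it stood at 9.98, 9.51 and 9.66 TPM untreated, 7.05, 6.92 and 7.32 with chemotherapy, 4.35, 5.64 and 4.22 with trametinib and 4.04, 3.50 and 3.93 with the combination. All 3 treatments were below untreated without overlap (log2 difference -0.40 ± 0.086, adjusted p = 0.0018, log2 difference -0.91 ± 0.086, adjusted p = 3.6e-08 and log2 difference -1.15 ± 0.086, adjusted p = 9.6e-10, limma). At 24 h the values were 12.1, 11.1 and 10.5 TPM untreated, 6.45, 6.73 and 6.46 with chemotherapy, 12.7, 13.2 and 14.9 with trametinib and 9.91, 11.8 and 11.7 with the combination. Chemotherapy was still lower (log2 difference -0.70 ± 0.086, adjusted p = 1.0e-06, limma), the combination overlapped the untreated libraries, and trametinib was now slightly higher (log2 difference 0.25 ± 0.086, adjusted p = 0.016). That last call was lost without untreated or trametinib replicate 3 (limma adjusted p up to 0.093), as was the fall of the combination against trametinib (log2 difference -0.27 ± 0.086, adjusted p = 0.015) without trametinib replicate 3 or combination replicate 1 (up to 0.095). The change of the trametinib effect in Col8a1 between the times was called at 1.16 ± 0.12 (limma adjusted p = 5.5e-07).

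Col18a1 (chromosome 10, 77052178 to 77166548, minus strand) is the multiplexin of basement membranes whose cut-off end is endostatin, an inhibitor of vessel growth. Its RefSeq window at the upstream start is printed as that of the 1 abundant member that trametinib lowered at both times, and capitals mark GGGCGG and CCAAT on either strand.
Col18a1, chr10:77166481-77166780, minus strand: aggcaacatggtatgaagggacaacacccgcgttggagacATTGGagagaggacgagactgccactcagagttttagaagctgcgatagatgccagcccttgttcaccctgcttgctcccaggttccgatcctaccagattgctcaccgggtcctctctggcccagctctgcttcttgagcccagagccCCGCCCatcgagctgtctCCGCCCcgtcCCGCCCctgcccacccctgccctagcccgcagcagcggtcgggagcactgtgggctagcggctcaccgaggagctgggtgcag

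At 6 h Col18a1 stood at 67.4, 61.7 and 67.6 TPM untreated, 69.1, 67.1 and 69.4 with chemotherapy, 52.6, 57.0 and 44.6 with trametinib and 42.5, 48.8 and 54.7 with the combination. At 24 h it stood at 147, 136 and 157 TPM untreated, 154, 133 and 156 with chemotherapy, 40.8, 46.3 and 50.2 with trametinib and 71.8, 74.2 and 86.4 with the combination. The untreated level rose with time (log2 difference 1.15 ± 0.10, adjusted p = 1.3e-08, limma), chemotherapy libraries overlapped untreated ones at both times, and trametinib libraries at 24 h overlapped their 6 h range. The log2 difference with trametinib was -0.35 ± 0.10 at 6 h and -1.66 ± 0.10 at 24 h (limma adjusted p = 0.0067 and 5.2e-11), the first lost without trametinib replicate 3 (0.054). The combination at 24 h lay between the untreated and trametinib libraries, above the sum of both effects (log2 difference 0.74 ± 0.14, adjusted p = 6.2e-04, limma). Most of the level lay in Col18a1-202, which starts at 77166548, where the printed window is set by a start at 77166530, with 87.7% in untreated cells at 24 h and 75.1% with trametinib. Col18a1-204, a short protein-coding transcript that starts downstream at 77089428, stood at 17.5 ± 9.14 TPM untreated and 11.3 ± 3.50 with trametinib.

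Col26a1 (chromosome 5, 136741759 to 136883209, minus strand) was listed at 6.96 ± 1.40 TPM in untreated cells at 6 h and was called in none of the 16 comparisons by limma. Nearly all of its level lay in 1 retained-intron transcript, Col26a1-207, of whose 31-base words 19.5% occur in other genes, and its protein-coding transcripts were listed at 0 in every library.

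Over all 21 members, the combination differed from the sum of the chemotherapy and trametinib effects in 8 at 24 h, 6 above the sum and 2 below, against 16.2% and 15.6% of all genes. Of the 12 members present in all libraries, 4 were above the sum and 0 below. Col1a2, Col5a3, Col9a3 and Col24a1 lay outside these 12. The 6 were Col1a2, Col5a2, Col8a1, Col18a1, Col24a1 and Col4a2 (log2 difference 0.55 ± 0.20, adjusted p = 0.043, limma), the last a call lost in 11 of 24 leave-one-out fits (up to 0.12). The 2 below were Col9a3 and Col5a3, the members that chemotherapy alone raised most. Col8a1 exceeded the sum by 0.43 ± 0.12 (limma adjusted p = 0.011), with chemotherapy alone lowest of the 4 groups. At 6 h no member differed from the sum by limma, against 0.0874% of all genes above and 0.00795% below it, with 2 members at an unadjusted p under 0.05.

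**Figure D5:**
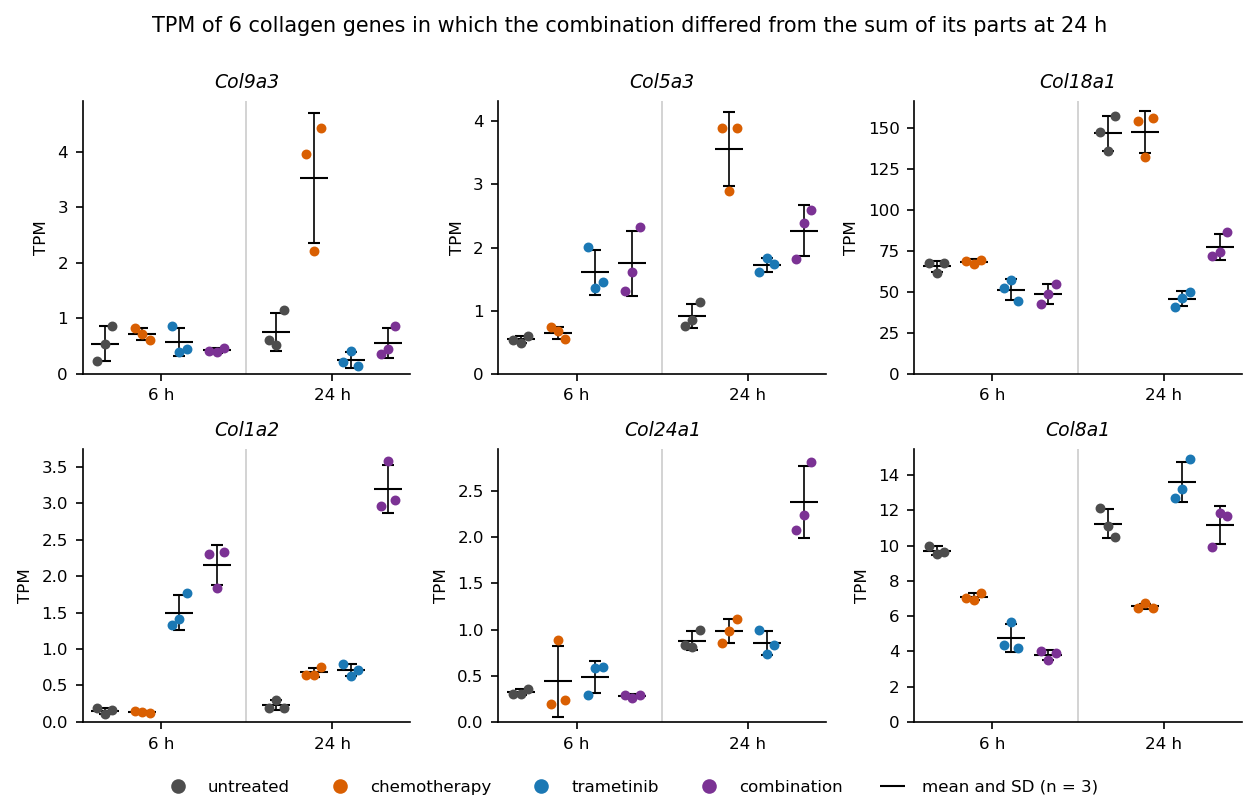
TPM of 6 collagen genes in each library (points) with the group mean and SD (black). At 24 h, Col9a3 and Col5a3 are highest with chemotherapy alone and lower with the combination, Col1a2 and Col24a1 are highest with the combination, and Col18a1 with the combination lies between trametinib and untreated libraries.

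Untreated cells changed with time as well, with 7 members higher at 24 h than at 6 h and 3 lower, against 29.4% and 31.4% of all genes. Col18a1, Col3a1, Col6a1, Col24a1, Col16a1, Col5a3 and Col5a2 were higher, and Col7a1, Col5a1 and Col4a1 were lower. Of these, Col24a1 and Col5a3 lay outside the 12 members present in all libraries, of which 5 were higher and 3 lower. Col24a1 stood at 0.308, 0.302 and 0.359 TPM at 6 h and 0.829, 0.812 and 0.998 TPM at 24 h (log2 difference 0.51 ± 0.13, adjusted p = 0.0031, limma), without overlap. Calls that changed when 1 library was left out were those of Col5a3 (log2 difference 0.31 ± 0.13, adjusted p = 0.049, lost in 16 of 24 leave-one-out fits), Col4a1 (log2 difference -0.26 ± 0.11, adjusted p = 0.043, lost in 5) and Col5a1 (log2 difference -0.37 ± 0.14, adjusted p = 0.031, lost in 4), with limma adjusted p up to 0.19.

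Treatment effects also differed between the times. The difference from untreated cells at 24 h minus that at 6 h was called above 0 in 8 members and below 0 in 2 with trametinib, against 15.9% and 22.3% of all genes. With the combination it was above 0 in 12 and below 0 in 1, against 25.3% and 24.3%. With chemotherapy it was above 0 in 4 and below 0 in 3, against 28.3% and 16.7%, and with rescaled libraries in 3 and 5. Over the 12 members present in all libraries the counts above and below 0 were 5 and 1 with trametinib. They were 7 and 1 with the combination, and 1 and 3 with chemotherapy. Col1a1 was the member with the largest value for trametinib, with log2 differences of 0.65 at 6 h and 2.53 at 24 h under trametinib (log2 difference 1.89 ± 0.27, adjusted p = 2.2e-05 for the change, limma). Col18a1 was called below 0, with -0.35 and -1.66 (log2 difference -1.31 ± 0.14, adjusted p = 1.0e-06).

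The proteins that fold, export, crosslink, bind and degrade collagen are described from lists of 61 genes chosen with earlier results of these data known, 44 of which could be tested. Most enzymes and chaperones of folding that could be tested rose with trametinib at 24 h. Of 18 tested folding genes, 7 were higher and 0 lower at 6 h, and 12 higher and 0 lower at 24 h, with a median of 0.38 beside 0.036 over all genes. The 6 h count is near the 35.9% of all genes called higher, and at 24 h 32.4% were. Chemotherapy at 24 h gave 3 higher and 6 lower (34.9% and 24.3% of all genes), with a median of -0.078. P4ha3, a catalytic subunit of the enzyme that hydroxylates collagen prolines, stood at 5.50, 6.21 and 6.19 TPM untreated, 4.79, 4.99 and 4.90 with chemotherapy, 34.2, 29.5 and 31.1 with trametinib and 27.7, 30.1 and 25.5 with the combination at 24 h. The trametinib and combination libraries were all above the others (log2 difference 2.23 ± 0.083, adjusted p = 4.0e-14 for trametinib, limma). P4ha2, another such subunit, and P4hb, their shared partner, gave 1.75 ± 0.12 and 1.07 ± 0.068 with trametinib at 24 h. The prolyl 3-hydroxylase P3h2 gave 1.18 ± 0.15 with the combination at 24 h, and the collagen chaperone Fkbp14 gave 1.17 ± 0.11 with it at 6 h. These 4 were called by limma (largest adjusted p = 1.2e-06). The collagen chaperone Serpinh1, at 364, 334 and 422 TPM untreated and 416, 450.2 and 384 with trametinib, was not (log2 difference 0.16 ± 0.12, adjusted p = 0.27).

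Export and processing genes were divided. At 24 h 7 of 12 tested were higher and 3 lower with trametinib (32.4% and 26.3% of all genes), and 3 were higher and 5 lower with chemotherapy (34.9% and 24.3%). Pcolce, which speeds the removal of the C-terminal propeptide, stood at 242, 250.05 and 272 TPM untreated, 395, 391 and 369 with chemotherapy, 813, 799 and 815 with trametinib and 718, 836 and 784 with the combination at 24 h. Chemotherapy libraries lay above the untreated ones, and those of trametinib and the combination, which overlapped each other, lay above both (log2 difference 1.67 ± 0.057, adjusted p = 1.1e-14 for trametinib, limma). Adamts14, a protease that removes the N-terminal propeptide, fell instead, from 27.2, 24.6 and 28.5 TPM to 15.0, 13.2 and 13.4 with chemotherapy, 16.1, 16.0 and 16.6 with trametinib and 9.74, 9.42 and 10.9 with the combination. Each treatment was below untreated without overlap (log2 difference -1.33 ± 0.093, adjusted p = 2.4e-10 for the combination, limma).

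Of 3 tested crosslinking genes, 2 were higher and 0 lower with trametinib at 24 h, where 32.4% of all genes were higher. Loxl2, a lysyl oxidase that crosslinks type IV and fibrillar collagen, stood at 6.81, 6.27 and 6.68 TPM untreated, 11.8, 9.55 and 10.6 with chemotherapy, 31.3, 32.5 and 33.7 with trametinib and 34.3, 36.4 and 36.2 with the combination. The groups stood apart in that order (log2 difference 2.14 ± 0.078, adjusted p = 2.6e-14 for trametinib, limma). Of 8 tested collagen receptors, 6 were higher and 0 lower with trametinib at 24 h (32.4% and 26.3% of all genes). With chemotherapy 3 were higher and 3 lower, near the 34.9% and 24.3% of all genes. The receptor kinase Ddr1 rose with trametinib at 6 h by 1.05 ± 0.15 and the integrin chain Itga10 with the combination at 6 h by 1.43 ± 0.14. Adgrg1, a receptor for type III collagen, rose with chemotherapy at 24 h by 1.31 ± 0.075, and Adgrg6, a receptor for type IV collagen, rose with trametinib at 24 h by 1.00 ± 0.065. All 4 were called by limma (largest adjusted p = 6.2e-06). Of 3 tested breakdown genes, 2 were higher and 1 lower with trametinib at 24 h (32.4% and 26.3% of all genes), and 1 was higher and 2 lower with chemotherapy (34.9% and 24.3%). The membrane collagenase gene Mmp14 rose with trametinib (log2 difference 0.61 ± 0.056, adjusted p = 1.6e-08, limma) and fell with chemotherapy (log2 difference -0.27 ± 0.056, adjusted p = 4.3e-04). The collagenase gene Mmp13 went the other way and stood at 7.05, 6.31 and 6.06 TPM untreated, 10.6, 12.9 and 11.0 with chemotherapy, 2.37, 2.87 and 2.22 with trametinib and 7.64, 8.49 and 7.49 with the combination at 24 h. It was highest with chemotherapy and lowest with trametinib of the groups, none of which overlapped (log2 difference 0.74 ± 0.095, adjusted p = 1.8e-06 and log2 difference -1.10 ± 0.095, adjusted p = 7.5e-09, limma).

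RefSeq promoter windows were found for 35 of the 44 members and for 16 of the 21 tested, some with more than 1 start. Of the 18 windows of tested members, 13 held GGGCGG, 8 CCAAT, 2 TATAAA (in Col3a1 and Col11a2) and 1 TGANTCA (in Col6a1), on either strand. The shares among all 32851 windows were 35.7%, 37.4%, 13.6% and 7.80%. Windows of Col4a1 and Col4a2 share bases, so that a match can count in both, and no member's level was compared by these motifs.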

How the data were processed

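The authors deposited 1 table of TPM per transcript for the 24 libraries, and per the submitters' processing notes bcl2fastq 2.17.1.14, kallisto 0.45 and the GRCm38 build were used. The transcript set and the strand setting are not given in the sources used here. Per the labels, a stranded kit with poly-A selection was used. TPM sums to the same total in each library and holds no depth, so no count test was run.

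Transcripts were matched by identifier to GENCODE M21 (79662 of 82934, the rest holding 4.45 to 5.98% of TPM) and their TPM summed per gene. Genes with 1 TPM in 3 libraries (12581) were fitted as log2(TPM + 1) with limma 3.58.1 in R 4.3.3, over all 8 groups with a trended variance, with 16 comparisons and Benjamini-Hochberg adjustment. The script was tested on simulated data. Replicate numbers did not pair the samples. Figures were drawn with matplotlib 3.10.9.

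Alternatives were a pseudocount of 0.1, no filter, a mean of 5 TPM, libraries rescaled by the median ratio of TPM, the groups of a comparison alone, the replicate block, a Bonferroni threshold of 0.10, no variance trend, each library left out and, added after the data were seen, protein-coding transcripts alone. Every tested member is named, and of the other lists those called with a log2 difference of at least 1. Serpinh1 and Mmp14 were added after their values were seen. The members, lists, markers and motifs were chosen with earlier results of these data known. Sharing between genes was counted as 31-base words of the annotated transcripts.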

Additional observations from a re-analysis of the deposited data

Results flagged for a closer look

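In 30 values the effect of a treatment on a collagen gene at 24 h differed from its effect at 6 h, by limma's test of the difference between both effects (log2 scale, 24 h minus 6 h, ± standard error). The 3 treatments share the untreated libraries. With chemotherapy 7 genes were called, 4 above 0 and 3 below, against 28.3% and 16.7% of all genes. Col9a3 gave 1.18 ± 0.27 (adjusted p = 0.0014) and Col5a3 gave 1.15 ± 0.19 (adjusted p = 5.9e-05). Smaller positive values came from Col1a2 at 0.47 ± 0.12 (adjusted p = 0.0037) and Col6a1 at 0.41 ± 0.15 (adjusted p = 0.038). The negative values were -0.43 ± 0.12 (adjusted p = 0.0080) for Col3a1, -0.37 ± 0.097 (adjusted p = 0.0047) for Col16a1 and -0.31 ± 0.11 (adjusted p = 0.024) for Col5a2. Leaving out 1 library ended the call of Col6a1 in 9 of 24 limma fits (adjusted p up to 0.090), and that of Col5a2 without chemotherapy replicate 1 at 6 h or untreated replicate 1 at 24 h (up to 0.066). The call of Col1a2 ended with protein-coding transcripts alone.

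With trametinib 10 genes were called, 8 above 0 and 2 below, against 15.9% and 22.3% of all genes. The fibrillar genes among them were Col1a1 at 1.89 ± 0.27 (adjusted p = 2.2e-05), Col5a2 at 0.80 ± 0.11 (adjusted p = 1.1e-05), Col5a1 at 0.61 ± 0.20 (adjusted p = 0.022) and Col3a1 at 0.46 ± 0.12 (adjusted p = 0.0065). Outside the fibrillar class, Col8a1 gave 1.16 ± 0.12 (adjusted p = 5.5e-07), Col6a3 0.88 ± 0.20 (adjusted p = 0.0017), Col16a1 0.75 ± 0.097 (adjusted p = 6.6e-06) and Col4a5 0.54 ± 0.15 (adjusted p = 0.0091). Negative values came from Col18a1 at -1.31 ± 0.14 (adjusted p = 1.0e-06) and Col1a2 at -0.64 ± 0.12 (adjusted p = 3.2e-04). The Col5a1 call ended without replicate 3 of either 6 h group or untreated replicate 1 at 24 h (limma adjusted p up to 0.058), and that of Col1a2 with protein-coding transcripts alone.

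With the combination 13 genes were called, 12 above 0 and 1 below, against 25.3% and 24.3% of all genes. Fibrillar members were Col1a1 at 1.70 ± 0.27 (adjusted p = 3.9e-05), Col5a2 at 1.01 ± 0.11 (adjusted p = 3.5e-07), Col24a1 at 0.89 ± 0.19 (adjusted p = 7.1e-04), Col5a1 at 0.53 ± 0.20 (adjusted p = 0.037) and Col1a2 at 0.32 ± 0.12 (adjusted p = 0.034). The beaded filament genes Col6a3, Col6a2 and Col6a1 gave 1.13 ± 0.20 (adjusted p = 1.2e-04), 0.93 ± 0.21 (adjusted p = 0.0014) and 0.57 ± 0.15 (adjusted p = 0.0046). The other positive values were 1.14 ± 0.12 (adjusted p = 3.6e-07) for Col8a1, 0.80 ± 0.26 (adjusted p = 0.014) for Col7a1, 0.50 ± 0.15 (adjusted p = 0.012) for Col4a5 and 0.35 ± 0.097 (adjusted p = 0.0052) for Col16a1. Col18a1 alone was negative among the 13, at -0.49 ± 0.14 (adjusted p = 0.0085). Leaving out 1 library ended the call of Col1a2 in 6 and of Col5a1 in 8 of 24 limma fits (adjusted p up to 0.11 and 0.097).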

How the results depend on the processing

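Of 166 calls among 336 values (21 genes in 16 comparisons), 145 held with every library left out and 21 did not. Leaving out 1 library, the number of collagen genes called at 6 h ranged from 1 to 3 for chemotherapy, 12 to 14 for trametinib, 14 to 15 for the combination, 13 to 16 for it against chemotherapy, 1 to 3 against trametinib, and stayed at 0 against the sum. At 24 h these were 11 to 13, 14 to 16, 15 to 16, 17 to 19, 9 to 11 and 7 to 9. For 24 h minus 6 h they were 5 to 8 for chemotherapy, 9 to 12 for trametinib, 11 to 15 for the combination and 7 to 11 for untreated cells. A mean of 5 TPM tests fewer genes and called 1, 7, 8, 6 and 0 collagen genes at 6 h (in the order above), 7, 7, 7 and 9 in the first 4 comparisons at 24 h, 3 against the sum, and 3, 5, 6 and 6 for the times. The Bonferroni threshold called 0, 7, 8, 7 and 0 at 6 h. At 24 h it called 4 for chemotherapy, 4 for the combination against trametinib and 1 against the sum, and 1, 5, 3 and 2 for the times. No filter called 1 for chemotherapy at 6 h. Against trametinib at 6 h, rescaling called 4, and the 2 groups alone or protein-coding transcripts called 0. Directions reversed only with protein-coding transcripts, in Col11a2 with trametinib at 6 h (-0.032) and in Col1a1 at 24 h for the combination against trametinib (0.45) and against the sum (0.44). The causes were not tested. Counts under these settings stand without the share of all genes called under the same setting.

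Samples share only a replicate number: same-numbered libraries deviated together with a median r of -0.035, and 6 of 24 were closest to their own number. With the replicate block no count of called genes moved by over 1.5 times, and 3 single calls were lost, for Col11a2 with trametinib at 6 h (adjusted p = 0.061), Col4a2 against the sum at 24 h (0.051) and Col4a1 in untreated cells (0.0505). Depth limits are unknown with TPM, and 9 of the 21 genes stood under 1 TPM in some library.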
